A study of Mus musculus with 18 samples.

Results

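The Trim12 and Trim30 genes form a tandem array on mouse chromosome 7, and their levels were followed here in B cells that carried or lacked Dnmt3a and Dnmt3b, the enzymes that set DNA methylation at new sites. The members were taken by symbol: Trim12a, Trim12c, Trim30a, Trim30b, Trim30c, Trim30d and Trim34a from the array, with Trim21 and Trim68 from farther along the same chromosome. Of these 9 genes, 8 had a row among the 21761 genes of the table, and all 8 passed the filter on low values that left 11522 genes. Trim30c had no row and was not analysed here. Trim12a had been selected on its genotype difference in naive B cells and Trim30a on its genotype difference in plasma cells, so the values of all members in those contrasts are given as a description and carry no test. The tests below concern the genotype contrast in germinal center B cells and the contrasts between cell types, leaving out each selected gene wherever its selecting cells take part.

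Messenger RNA was sequenced from sorted naive B cells (nB; B220+ Fas- GL7-) and phycoerythrin-specific germinal center B cells (GCB; B220+ Fas+ GL7+ PE+) of lymph nodes, and from CD138+ plasma cells of bone marrow (BMPC). All mice were fl/fl for Dnmt3a and fl/fl for Dnmt3b on a stock described as B6;129S4; Dnmt3-deficient mice also carried 1 Cre allele active in B cells, and their Dnmt3-sufficient littermates carried none. Each of the 6 groups held 3 libraries of 5000 cells, males and females being mixed. GCB and BMPC came from mice 30 days after phycoerythrin in complete Freund's adjuvant, nB came from unimmunized mice, and each GCB library pooled a pair of mice. Per the study's methods, the mice were 8 to 12 weeks old when experiments began. Cre, loss of Dnmt3a and Dnmt3b, and any sequence inherited together with the Cre allele cannot be told apart in this design.

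Trim genes encode tripartite motif proteins, most of them RING-type E3 ubiquitin ligases, and many are switched on by interferon. Mouse Trim12a and Trim12c belong with Trim5, whose primate counterpart blocks incoming retroviruses. Trim30a is known as a brake on Toll-like receptor signalling to NF-kB, acting on the adaptor proteins Tab2 and Tab3. Trim21 is a cytosolic antibody receptor that directs antibody-coated virus to the proteasome. Families of this kind arise by tandem duplication, so that neighbouring copies keep long stretches of near-identical sequence and their reads are easily confused.

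On the mm9 build with GENCODE M1 models, Trim12a spans chr7:111448408-111463980 and Trim12c spans chr7:111487268-111501876, both on the minus strand. Trim30b (chr7:111503896-111518398), Trim30a (chr7:111557539-111613707) and Trim30d (chr7:111618528-111656363) follow on the same strand. Trim34a (chr7:111392971-111489207) is read from the plus strand, and its model runs across Trim12a and reaches Trim12c. The array thus covers 263 kb. Trim21 (chr7:109706436-109713983) and Trim68 (chr7:109826094-109835840) lie 1.68 and 1.56 Mb outside it.

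The start regions show how close the copies are. RefSeq windows on GRCm38.p6 were found for all 9 members (10 windows, Trim30a having a second start), and each holds 250 bases before the start and 50 after it. The Trim12a and Trim12c windows were 95.0% identical over 260 aligned bases. Among the 36 pairs of windows only 4 were above 80% identity, namely the Trim12 pair and the pairs among Trim30a, Trim30c and Trim30d, at 85.8% to 95.0%. The other 32 pairs aligned at 56.0% to 70.7%. The windows of the Trim12 pair are shown because this is the pair whose reads are compared throughout. They are printed up to base 30 of the transcript, with capitals marking the match to the interferon-type element GAAANNGAAA, read here on the other strand as TTTCNNTTTC:
Trim12a (chr7:104315466-104315745, minus strand): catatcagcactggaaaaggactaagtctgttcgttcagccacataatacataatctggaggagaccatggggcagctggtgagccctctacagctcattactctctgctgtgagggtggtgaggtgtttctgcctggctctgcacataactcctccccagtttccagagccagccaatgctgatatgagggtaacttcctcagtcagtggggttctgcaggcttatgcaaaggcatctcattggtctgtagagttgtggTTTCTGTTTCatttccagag
Trim12c (chr7:104353320-104353599, minus strand): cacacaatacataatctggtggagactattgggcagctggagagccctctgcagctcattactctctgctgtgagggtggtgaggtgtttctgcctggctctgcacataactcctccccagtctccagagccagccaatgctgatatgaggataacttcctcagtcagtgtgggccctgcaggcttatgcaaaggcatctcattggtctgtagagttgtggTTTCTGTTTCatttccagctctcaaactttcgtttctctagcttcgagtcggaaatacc

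The match stands in the same surroundings in both genes. It falls at bases 10 to 19 after the annotated start of Trim12a and at bases -29 to -20 of Trim12c, because the annotated starts differ. The other members with a match are shown as the bases around it, so that the shared surroundings of Trim30a and Trim30d can be compared with those of Trim34a and Trim21:
Trim30a (chr7:104465210-104465249, minus strand): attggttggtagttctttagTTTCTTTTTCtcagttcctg
Trim30d (chr7:104507871-104507910, minus strand): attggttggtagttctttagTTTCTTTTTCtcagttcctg
Trim34a (chr7:104244447-104244486, plus strand): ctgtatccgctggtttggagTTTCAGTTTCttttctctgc
Trim21 (chr7:102565453-102565489, minus strand): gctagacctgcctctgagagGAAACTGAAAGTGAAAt

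In all, 6 of the 9 members held GAAANNGAAA on either strand, beside 3.44% of 32851 windows of this length. The Trim21 window held 2 overlapping matches. Trim30b, Trim30c and Trim68 held none, which says only that these letters are not in their windows. CpG dinucleotides, the substrate of Dnmt3a and Dnmt3b, were sparse in the start windows of the array. The windows of the 7 array members held 0 to 3 CpGs, against a median of 7 over all windows, and 31.4% of all windows held at most 3. Outside the array, the Trim21 window held 3 and the Trim68 window held 16.

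Because the copies resemble each other, the exon sequence shared with other Trim genes of the region was measured first. Every 50-base word of the annotated exons was compared with the exons of the other Trim genes of the region. For Trim12a 17.8% of the words lay within 2 mismatches of another gene, mostly of Trim12c (14.1%) and Trim5 (13.6%). For Trim12c it was 63.6%, almost all of it shared with Trim5 (60.5%), a gene with no row in the table. Trim34a shared 65.1% of its words, mainly with Trim34b (56.7%), which likewise had no row. Trim30d shared 17.8%, Trim30a 9.19% and Trim30b 3.15%, while Trim21 and Trim68 shared none. Identical words were fewer, at 8.57% for Trim12a, 32.9% for Trim12c and 46.6% for Trim34a. A word with mismatches may still be placed. Exon bases also overlap between models, 405 bases of Trim12c with Trim34a on the opposite strand and 95 bases of Trim12a with Trim34b. Another 875 bases are held by both Trim34a and Trim34b on the same strand. Words from such overlaps count as shared although they are the same bases of the genome. The reads were mapped with at most 1 alignment each, and whether strand was used in counting was not given in the sources used here. Values of Trim12c and Trim34a are therefore uncertain where reads could belong to Trim5 or Trim34b, and those of Trim12a are less so.

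**Figure D1:**
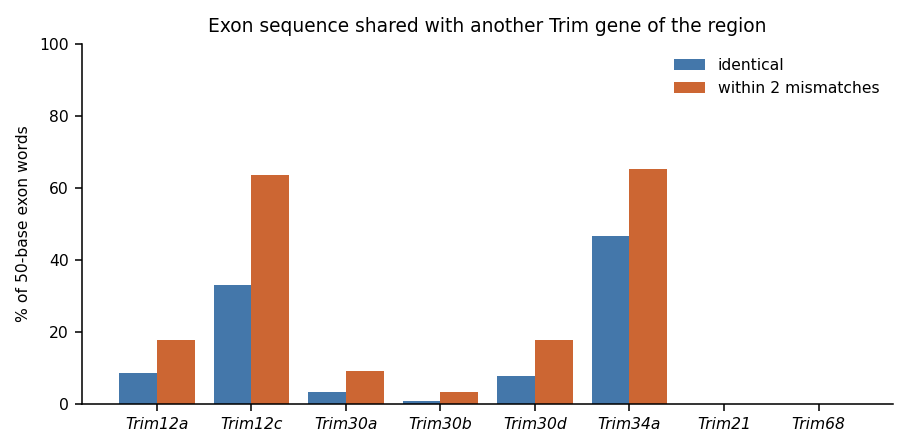
Share of each gene's 50-base exon words (vertical axis, %) that occur, identically (blue) or within 2 mismatches (orange), in another Trim gene of the region. Within 2 mismatches, Trim12c (63.6%) and Trim34a (65.1%) share most of their words, Trim12a shares 17.8%, and Trim21 and Trim68 share none.

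Depth and labels bear on what follows. Exon reads numbered from 6692516 to 8987922 per nB library, from 7644544 to 8903872 per GCB library, and from 1355231 to 3803197 per BMPC library. The BMPC libraries were the shallow ones, and the 3 Dnmt3-deficient ones (1355231 to 2265945 reads) were shallower than 2 of the 3 Dnmt3-sufficient ones (2196198 to 3803197). In BMPC 60.8% of the tested genes had no read in at least 1 library, against 18.5% in nB and 17.3% in GCB. Markers followed the labels: the summed level of 5 GCB markers was 711.8 to 936.0 FPKM (reads scaled to the exon length of the gene and to the total of the library) in GCB and at most 73.6 elsewhere, and that of 6 plasma cell markers was at least 18740 in BMPC and at most 1518 elsewhere. Neutrophil markers were at 0 in every nB and GCB library, while their sum reached 63.4 to 525.9 FPKM in Dnmt3-sufficient and 9.37 to 581.6 in Dnmt3-deficient BMPC. Dnmt3a read 0.0232 to 0.378 FPKM over the 6 GCB libraries and 2.24 to 5.18 over the 6 nB libraries, with the genotypes overlapping in every cell type, while Dnmt3b in GCB read 0.744 to 1.10 FPKM in Dnmt3-deficient and 0 to 0.676 in Dnmt3-sufficient libraries; exon totals do not test a deletion confined to part of the gene.

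Trim12a was close to absent in Dnmt3-sufficient nB and readily detected in Dnmt3-deficient nB. Dnmt3-sufficient nB gave 0.778, 1.09 and 1.06 FPKM, from 30, 48 and 55 reads. Dnmt3-deficient nB gave 21.1, 30.3 and 24.1 FPKM, from 971, 1223 and 1062 reads. The groups were far from overlapping, and the ratio of their means, 25.2 ± 4.67 to 0.977 ± 0.172 FPKM (SD, n = 3 each), was 25.8. On the log2(FPKM + 1) scale, which damps differences at low levels, the difference was 3.71 with a standard error of 0.535.

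In GCB, cells that played no part in the selection of Trim12a, the gene pointed the same way. Dnmt3-sufficient libraries read 0.0780, 1.57 and 0.0615 FPKM, from 4, 69 and 3 reads, and Dnmt3-deficient libraries read 9.45, 3.65 and 5.63, from 454, 170 and 286 reads. The groups did not overlap, although Dnmt3-sufficient replicate 2 stood well above the other libraries of its group. The log2 difference was 2.26 (standard error 0.535), with an unadjusted limma p of 6.02e-04 and a limma adjusted p of 1.00 over 11522 genes, so that the difference did not pass. An exact two-sided permutation test of the 3 against 3 libraries gave p = 0.1, the smallest value that design allows. Across the genome 0 of 11522 genes (0%) passed limma in this contrast (124 had an unadjusted p under 0.05), and limma-voom on the recovered reads called 2. With a quality weight per library the difference of Trim12a was 2.41 and its limma adjusted p 6.13e-03.

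In BMPC the same order was seen at lower depth. Dnmt3-sufficient libraries read 0.0791, 0 and 1.58 FPKM (1, 0 and 33 reads) and Dnmt3-deficient libraries 6.49, 2.18 and 7.36 FPKM (61, 17 and 96 reads). The lowest Dnmt3-deficient library was above the highest Dnmt3-sufficient one, and the log2 difference was 2.05 (standard error 0.535). Trim12a was thus higher in all 9 Dnmt3-deficient libraries than in any Dnmt3-sufficient library of the same cell type. Of the 11522 genes, 5 were apart in the same direction in all 3 cell types: Trim12a was the one that was higher in Dnmt3-deficient cells, while Psmb7, Polr2e, Mrpl18 and Uhrf1bp1l, on chromosomes 2, 10 and 17, were lower. These other genes were named after their values were seen. The nB contrast that selected Trim12a is part of this criterion, so nothing is read from the place of Trim12a in the count. Whether 5 genes are more than unrelated differences would give was not tested.

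**Figure D2:**
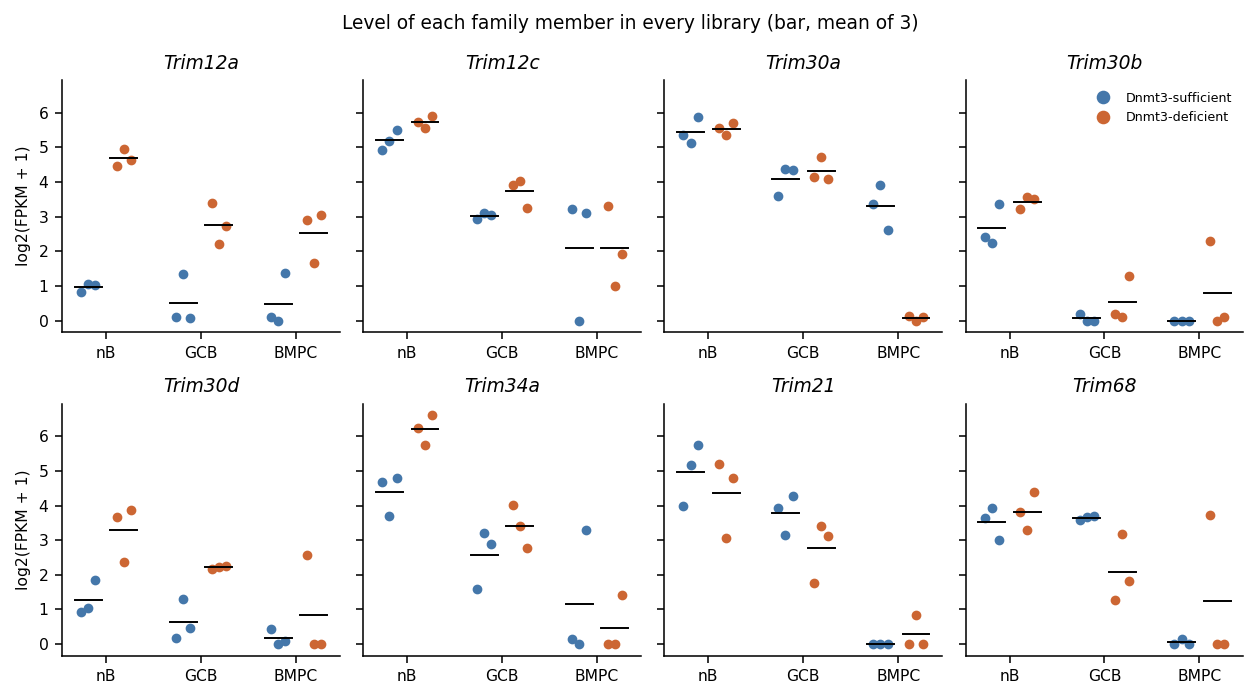
Level of each member as log2(FPKM + 1) (vertical axis) in every library of nB, GCB and BMPC, blue for Dnmt3-sufficient and orange for Dnmt3-deficient, with a bar at the mean of 3 libraries. Trim12a separates the genotypes in all 3 cell types, Trim30a separates them in BMPC, and Trim12c averages 36.5 and 52.6 FPKM in Dnmt3-sufficient and Dnmt3-deficient nB.

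Trim12c, its closest copy, behaved differently in size. In nB it stood at 29.7, 35.3 and 44.5 FPKM in Dnmt3-sufficient and 52.6, 46.4 and 58.9 in Dnmt3-deficient libraries. The groups did not overlap, but the ratio of means was only 1.44 (52.6 ± 6.21 to 36.5 ± 7.49 FPKM). In GCB the libraries read 6.61, 7.70 and 7.24 against 14.1, 15.4 and 8.55 FPKM, again without overlap, and the log2 difference of 0.70 (standard error 0.713) did not pass (limma adjusted p 1.00; exact permutation p = 0.1). In BMPC the groups overlapped, at 8.41, 0 and 7.60 against 9.02, 0.987 and 2.84 FPKM. In Dnmt3-sufficient nB, then, Trim12c was abundant in every library in which Trim12a was scarce.

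The share of Trim12a among the reads of the Trim12 pair sets both genes side by side within each library, so that the depth of the library drops out. The counted exons hold 5760 bases for Trim12a and 3736 for Trim12c, so equal read counts are not equal FPKM. Reads of Trim5, which had no row, could also enter the Trim12c count. In Dnmt3-sufficient nB it was 3.89%, 4.54% and 3.55%, with 95% Wilson intervals reaching from 2.74% to 5.97% over the 3 libraries. In Dnmt3-deficient nB it was 38.2%, 50.1% and 38.7%. Intervals of this kind cover counting error only, since amplified reads are not independent molecules. The 3 Dnmt3-sufficient shares lay within 1 percentage point of each other, far below the others.

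In GCB the shares were 1.79% (0.697% to 4.50%), 23.9% (19.3% to 29.1%) and 1.29% (0.441% to 3.73%) in Dnmt3-sufficient and 50.8%, 26.8% and 50.4% in Dnmt3-deficient libraries. The means were 8.99% ± 12.9 and 42.6% ± 13.8 (SD, n = 3), a difference of 33.7 percentage points with an exact two-sided permutation p of 0.1, the smallest possible. The shares of Dnmt3-sufficient replicate 2 and Dnmt3-deficient replicate 2 were close, and their intervals overlapped. The labels of these libraries carry the same number, which the permutation test did not take into account. In BMPC 1.43% and 24.3% were seen in Dnmt3-sufficient replicates 1 and 3, replicate 2 having no read of either gene, against 52.6%, 77.3% and 80.0% in the Dnmt3-deficient libraries. The intermediate Dnmt3-sufficient libraries, GCB replicate 2 and BMPC replicate 3, were 2 of the 5 with a share outside nB, and the nB libraries held none.

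**Figure D3:**
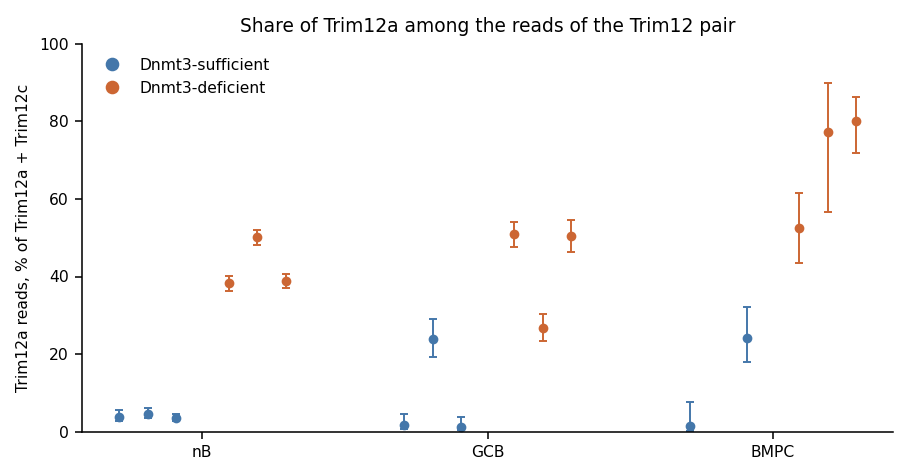
Trim12a reads as a percentage of Trim12a plus Trim12c reads in each library (points, with 95% Wilson intervals), by cell type, blue for Dnmt3-sufficient and orange for Dnmt3-deficient. Dnmt3-sufficient nB libraries lie at 3.55% to 4.54%, 2 Dnmt3-sufficient libraries of the other cell types lie near 24%, and the Dnmt3-deficient libraries lie at 26.8% to 80.0%. Reads are not scaled to exon length.

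Trim30d followed Trim12a more closely than any other member (Pearson r 0.77 over the 18 libraries, a description that includes the contrasts used for the selection). It stood at 0.915, 1.04 and 2.58 FPKM in Dnmt3-sufficient and 11.7, 4.21 and 13.5 in Dnmt3-deficient nB, without overlap, a log2 difference of 2.03 (standard error 0.612). In GCB it read 0.120, 1.46 and 0.377 against 3.51, 3.69 and 3.74 FPKM, again apart. Dnmt3-sufficient replicate 2 was once more the highest of its group. The GCB difference of 1.57 (standard error 0.612) had an unadjusted limma p of 0.0200 and did not pass (limma adjusted p 1.00; exact permutation p = 0.1). In BMPC Trim30d was carried by a single library, Dnmt3-deficient replicate 1, at 4.89 FPKM from 30 reads, every other library having at most 3 reads.

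Trim34a, which overlaps the Trim12 genes, stood at 24.8, 12.0 and 26.7 FPKM in Dnmt3-sufficient and 74.5, 52.5 and 96.6 in Dnmt3-deficient nB, so that the groups were apart with a log2 difference of 1.80 (standard error 0.766). In GCB they overlapped, at 2.02, 8.33 and 6.43 against 15.1, 9.63 and 5.90 FPKM, and the difference of 0.83 (standard error 0.766) did not pass (limma adjusted p 1.00). Trim34a was at or near 0 in 4 of the 6 BMPC libraries. Its 405 exon bases opposite Trim12c and the words it shares with Trim34b were not separated in these values.

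Trim30b was low and uneven between genotypes. In nB it read 4.36, 3.75 and 9.41 against 8.36, 10.8 and 10.5 FPKM, with overlap. In GCB it was between 0 and 0.154 FPKM in 5 libraries and at 1.45 in Dnmt3-deficient replicate 3 (80 reads), and the log2 difference was 0.47 (standard error 0.540; limma adjusted p 1.00).

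In nB 4 of the 8 members, Trim12a, Trim12c, Trim30d and Trim34a, were apart with the Dnmt3-deficient libraries higher, beside 4.66% of the genes tested. In GCB 3 members, the same ones without Trim34a, were apart in that direction, beside 5.58%, and Trim68 was apart in the other direction, beside 5.05%. These 3 were apart with higher values in both nB and GCB, as were 34 of 11522 genes (0.295%). In BMPC Trim12a was apart upward (3.02% of genes) and Trim30a downward (7.31%). Because the nB and BMPC contrasts chose Trim12a and Trim30a, nothing is read from their counts.

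Trim30a showed no such pattern in lymph node cells. Its nB levels were 40.3, 33.7 and 58.4 FPKM in Dnmt3-sufficient and 46.3, 40.1 and 50.9 in Dnmt3-deficient libraries, overlapping fully, and the log2 difference was 0.08 (standard error 0.419). In GCB it read 11.0, 19.6 and 19.3 against 16.6, 25.4 and 16.1 FPKM, and the difference of 0.22 (standard error 0.419) did not pass (limma adjusted p 1.00). The gene was the most abundant member of the array in GCB of both genotypes.

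In BMPC, where the gene had been selected, Dnmt3-sufficient libraries held 121, 314 and 108 Trim30a reads (9.43, 14.1 and 5.09 FPKM) and Dnmt3-deficient libraries held 1, 0 and 1. With the Dnmt3-deficient libraries placed at the floor of 3 reads each, the level was at least 31.2-fold lower. The log2 difference was -3.22 (standard error 0.419). The Dnmt3-deficient libraries that were low in Trim30a were also among the shallowest. Their deepest, replicate 3 with 2265945 exon reads, held 1 Trim30a read. Dnmt3-sufficient replicate 1, with 2196198 exon reads, held 121. The part of depth was not tested. At the floor of 3 reads in all Dnmt3-deficient BMPC libraries, and above it in all Dnmt3-sufficient ones, were 127 tested genes, against 38 the other way round. Of the neighbouring copies, the 3 Dnmt3-deficient libraries held 40, 0 and 1 reads of Trim30b and 30, 0 and 0 of Trim30d, so that replicate 1 had reads of both and the other libraries had next to none.

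Outside the array, Trim21 overlapped between genotypes in nB (14.9, 34.7 and 52.4 against 35.9, 7.34 and 26.7 FPKM) and in GCB (14.3, 7.83 and 18.2 against 2.42, 9.67 and 7.72 FPKM). Its GCB difference was -1.01 (standard error 0.631) and did not pass (limma adjusted p 1.00). Trim68, a RING-type ligase outside the array, stood at 11.0, 11.7 and 12.1 FPKM in Dnmt3-sufficient and 1.41, 8.03 and 2.51 in Dnmt3-deficient GCB, without overlap. The log2 difference of -1.57 (standard error 0.786) had an unadjusted limma p of 0.0626 and did not pass (limma adjusted p 1.00; exact permutation p = 0.1). In nB Trim68 overlapped between the genotypes, so that neither of these genes shared the direction of Trim12a in GCB.

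**Figure D4:**
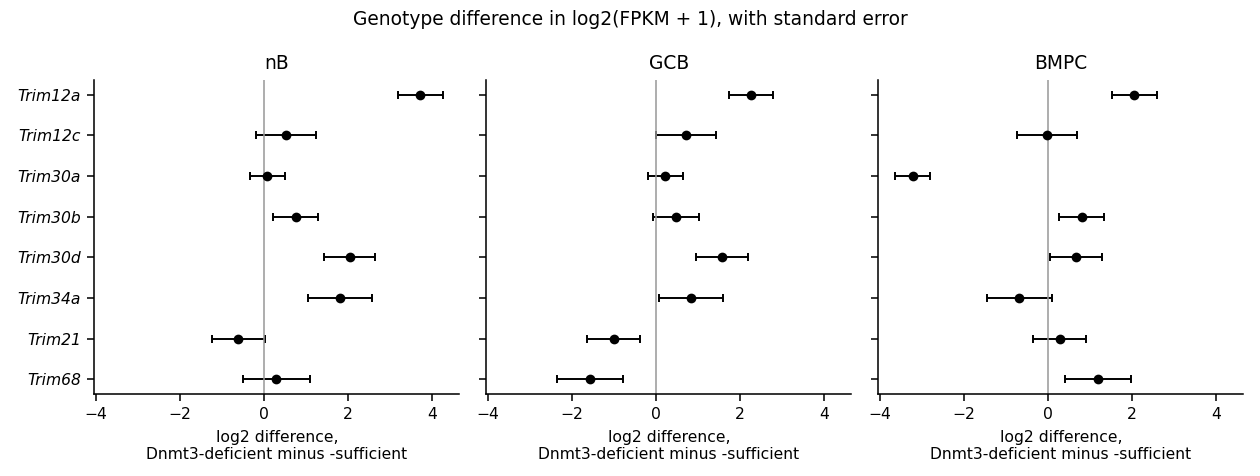
Difference in log2(FPKM + 1), Dnmt3-deficient minus Dnmt3-sufficient (horizontal axis), for each member in nB, GCB and BMPC, with the standard error of the limma fit. Trim12a lies at 3.71, 2.26 and 2.05, and Trim30a at 0.08, 0.22 and -3.22.

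The position of these differences along chromosome 7 was examined next. Within 1 Mb of the array lay 107 genes of the table, of which 10 were tested: 6 members, the globin genes Hbb-b1 and Hbb-bh1, the olfactory receptor gene Olfr613, and Fam160a2. The other genes of the window were too low. None but Trim12a was apart in the same direction in all 3 cell types. Hbb-b1 was apart in nB, at 0 to 0.237 against 3.97 to 71.8 FPKM, and in GCB. Hbb-bh1, an embryonic globin gene, was at 0 in all nB and BMPC libraries. In GCB it read 0, 6.95 and 0.246 FPKM in Dnmt3-sufficient and 40.0, 9.28 and 16.5 in Dnmt3-deficient libraries. The 6 GCB libraries therefore differed in Hbb-bh1 much as in Trim12a, Dnmt3-sufficient replicate 2 being the high library of its group for both. Hbb-b1 and Hbb-bh1 were singled out after their values were seen.

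Erythroid markers moved with genotype in nB as well. Of 6 erythroid genes 4 had a row, and their sum was 0.468 to 1.42 FPKM in Dnmt3-sufficient and 22.5 to 218.0 in Dnmt3-deficient nB, 0.351 to 3.53 against 3.01 to 11.6 in GCB, and 1160 to 2194 against 148.6 to 797.1 in BMPC. One of the 4 was at 0 in every library of each nB and GCB group. In BMPC the order of the erythroid sum was opposite to that of Trim12a. NK cell markers were likewise higher in Dnmt3-deficient nB, the sum of 4 genes being 24.5 to 72.7 against 6.69 to 29.9 FPKM with overlap, and at most 0.648 in GCB. Macrophage markers (6 genes) summed to 1.70 to 73.9 against 23.3 to 47.1 FPKM in nB and 15.3 to 18.9 against 11.0 to 19.7 in GCB, and T cell markers (5 genes) to 25.4 to 71.4 against 27.5 to 65.3 and 0.569 to 5.56 against 2.90 to 4.77. In BMPC the macrophage sum was 63.45 to 87.69 against 98.42 to 227.4 FPKM, apart and in the order of Trim12a. The T cell sum (53.53 to 177.7 against 111.0 to 197.7) and the NK cell sum (0 against 0 to 9.759) overlapped there. The part of other cells in the Trim12a values was not tested. At the chromosome scale, 8 of 868 tested genes of chromosome 7 (0.922%) were apart in the same direction in nB and GCB, beside 59 of all 11522 (0.512%); the share was higher on chromosome 10 (6 of 539, 1.11%), and 0.8% on chromosome 9. Among them were Trim12a, Trim12c, Trim30d, Hbb-b1, Pde2a and Ifitm2, which were higher in Dnmt3-deficient cells, and Mypop, which was lower. The mice were of a mixed B6 and 129S4 stock while reads were mapped to mm9, a C57BL/6J sequence, and a difference in strain sequence at the array cannot be told apart from a difference in expression.

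**Figure D5:**
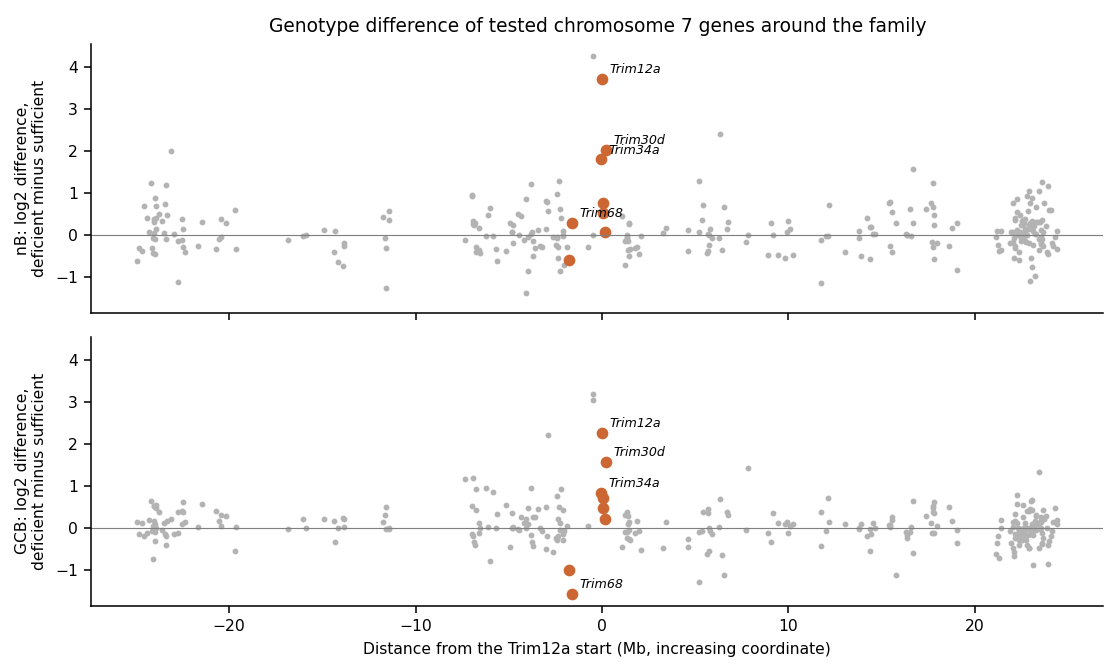
Genotype difference in log2(FPKM + 1) (vertical axis, Dnmt3-deficient minus Dnmt3-sufficient) for the 317 tested genes within 25 Mb of the Trim12a start (horizontal axis, distance in Mb), in nB (top) and GCB (bottom). Members are orange and other genes are grey; the highest grey points beside Trim12a are the globin genes Hbb-b1 (nB and GCB) and Hbb-bh1 (GCB).

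Between cell types, most members had their highest mean in nB. From nB to GCB in Dnmt3-sufficient cells, 3 of 7 members tested fell, beside 6.93% of all genes: Trim30a from 44.1 to 16.7 FPKM (log2 change -1.36, limma adjusted p 0.0362), Trim12c from 36.5 to 7.19 (-2.18, limma adjusted p 0.0483) and Trim30b from 5.84 to 0.0481 (-2.62, limma adjusted p 2.71e-03). The median change of the 7 was -1.36 against -0.11 for all genes tested. In Dnmt3-deficient cells 2 of 7 fell, beside 6.61%, namely Trim30b from 9.88 to 0.563 FPKM (-2.90, limma adjusted p 1.35e-03) and Trim34a from 74.5 to 10.2 (-2.79, limma adjusted p 0.0203). There Trim30a (-1.22, limma adjusted p 0.0631) and Trim12c (-2.00, limma adjusted p 0.0743) did not pass, which does not show that the genotypes differ, as that difference was not tested.

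Several of these calls changed with the libraries in the fit. In a fit without BMPC, chosen after the data were seen, Trim30a, Trim12c, Trim30b and Trim34a passed in both genotypes, with limma adjusted p values of 3.58e-03, 5.52e-05, 4.51e-04 and 0.0150 in Dnmt3-sufficient and 6.98e-03, 9.85e-05, 2.55e-04 and 1.60e-03 in Dnmt3-deficient cells. In the fit with all libraries, the call of Trim12c in Dnmt3-sufficient cells was lost when any 1 of the 12 nB and GCB libraries was left out (limma adjusted p 0.0596 to 0.142), and that of Trim30a without any of 6 of them (Dnmt3-sufficient nB replicate 1 or 3, Dnmt3-deficient nB replicate 1, or any Dnmt3-sufficient GCB replicate; 0.0508 to 0.174). The Trim34a call in Dnmt3-deficient cells was lost without Dnmt3-deficient nB replicate 1 or 3 or GCB replicate 2 or 3 (limma adjusted p 0.0565 to 0.0941). A pseudocount of 0.1 also ended all 3 calls (limma adjusted p 0.305 for Trim12c, 0.106 for Trim30a and 0.244 for Trim34a), and that of Trim12c was lost with no filter (0.0668) and with sex as a covariate (0.0565). Trim12a, described only, went from 0.977 to 0.569 FPKM in Dnmt3-sufficient and from 25.2 to 6.24 in Dnmt3-deficient cells. Trim68 stood at 10.9 FPKM in nB and 11.6 in GCB of Dnmt3-sufficient cells (log2 change 0.13, limma adjusted p 0.966). In Dnmt3-deficient cells it stood at 13.8 and 3.98 FPKM (-1.74, limma adjusted p 0.176), which passed in the fit without BMPC (0.0180), with only the groups compared (0.0352), with a quality weight per library (0.00345) and without Dnmt3-deficient BMPC replicate 1 (0.0233).

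From nB to BMPC nearly the whole family fell. In Dnmt3-sufficient cells 5 of 6 members tested passed downward, beside 27.6% of genes. Trim21 went from 34.0 FPKM to 0 in all 3 libraries (log2 change -4.96, limma adjusted p 1.39e-05), and Trim68 from 10.9 to 0.0367 FPKM (-3.48, limma adjusted p 2.31e-03). Trim34a (-3.24), Trim12c (-3.10) and Trim30b (-2.68) also passed, and Trim30d (-1.09, limma adjusted p 0.172) did not. In Dnmt3-deficient cells all 6 passed downward, beside 30.6% of genes, with changes from -2.45 (Trim30d) to -5.72 (Trim34a). The Trim68 call there (-2.58, limma adjusted p 0.0160) was lost without Dnmt3-deficient nB replicate 3 or BMPC replicate 2 or 3 (limma adjusted p 0.0648 to 0.0734) and with a quality weight per library (0.0695). With only the groups compared in the fit, Trim30d (limma adjusted p 0.0819) and Trim68 (0.126) did not pass in Dnmt3-deficient cells, nor did Trim34a in Dnmt3-sufficient cells (0.0524). The medians of the 6 were -3.17 and -3.14 against -0.70 and -0.84 for all genes. Fewer cells of a type and less RNA per cell cannot be told apart in sorted pools of this kind.

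From GCB to BMPC, 2 of 7 members tested fell in each genotype, beside 20.9% and 26.1% of genes. Trim21 was among them in both, from 13.4 FPKM to 0 in Dnmt3-sufficient (log2 change -3.78, limma adjusted p 2.80e-04) and from 6.60 to 0.266 in Dnmt3-deficient cells (-2.49, limma adjusted p 6.17e-03; 0.0794 with a quality weight per library, so that the call was lost there). The other was Trim68 in Dnmt3-sufficient (-3.60, limma adjusted p 2.50e-03) and Trim34a in Dnmt3-deficient cells (-2.93, limma adjusted p 7.51e-03). In the other genotype Trim68 (-0.84, limma adjusted p 0.435) and Trim34a (-1.42, 0.178) did not pass. Trim68 passed there without Dnmt3-deficient BMPC replicate 1 (limma adjusted p 0.0078), and Trim34a without Dnmt3-sufficient BMPC replicate 3 (0.0069). In Dnmt3-deficient cells Trim30d also passed without BMPC replicate 1 (0.0028), as did Trim12c (0.0247, and 0.0135 without Dnmt3-sufficient BMPC replicate 2). Whether the genotypes differ in these falls was not tested. Trim12a differed by -0.03 and -0.23 (limma adjusted p 0.995 and 0.771).

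The order of the levels is given as a description, without a test, since it includes the contrasts that selected Trim12a and Trim30a. In Dnmt3-sufficient nB it ran Trim30a, Trim12c, Trim21, Trim34a, Trim68, Trim30b, Trim30d, Trim12a by mean FPKM, and every neighbouring pair overlapped in range except Trim30b and Trim30d. In Dnmt3-deficient nB Trim34a came before Trim12c and Trim30a, and Trim12a took rank 4, with no overlap between Trim30a and Trim12a. In Dnmt3-sufficient GCB Trim12a was at rank 7 of 8 and in Dnmt3-deficient GCB at rank 5. In Dnmt3-deficient BMPC it held rank 1 at 5.34 ± 2.77 FPKM and Trim30a the last rank at 0.0601, although every neighbouring pair overlapped there.

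The wider family gave a background for these values. Of 58 other Trim genes 29 were tested, and in the GCB genotype contrast 0 of them passed limma, with a median difference of 0.02. From nB to GCB 0 rose and 2 fell in Dnmt3-sufficient cells, Trim65 (7.56 to 0.376 FPKM, log2 change -2.66, limma adjusted p 0.0121) and Trim7 (23.9 to 3.70, -2.42, limma adjusted p 1.98e-03), and 3 fell in Dnmt3-deficient cells, these and Trim3 (-2.21, limma adjusted p 0.0495). The medians were -0.56 and -0.45 against -0.11 and -0.13 for all genes. From nB to BMPC 9 of the 29 fell and none rose by limma in each genotype, a share near the 27.6% and 30.6% of all genes, Trim26 among them in both (-3.87 and -3.80, limma adjusted p 1.30e-04 and 1.67e-04).

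Interferon-stimulated genes were read because most members carry the interferon-type element. All 27 were tested, and 0 passed limma between the genotypes in GCB (median 0.06), as was so for all 11522 genes. From nB to GCB 11 of 27 fell and 0 rose in Dnmt3-sufficient cells, beside 6.93% of all genes falling (median -1.60 against -0.11), led by the antiviral genes Rtp4 (78.5 to 3.59 FPKM, limma adjusted p 0.0430), Ddx58, which encodes the RNA sensor RIG-I (33.8 to 1.26, limma adjusted p 2.61e-05), Ifit3 (48.0 to 2.70, limma adjusted p 0.0121) and Mx1 (13.0 to 0.508, limma adjusted p 0.0123). In Dnmt3-deficient cells 3 of 27 fell, beside 6.61%, and 0 rose (median -0.84 against -0.13): Ddx58, Bst2 and Oas2. These counts come from the fit with all libraries, and whether the genotypes differ in this fall was not tested. From nB to BMPC 17 fell and 1 rose in Dnmt3-sufficient (median -2.46 against -0.70, beside 27.6% of all genes falling) and 14 fell and 2 rose in Dnmt3-deficient cells (median -1.88 against -0.84, beside 30.6%), among them Stat2, a subunit of the interferon-activated transcription factor (-3.95 and -4.27, limma adjusted p 2.00e-05 and 1.05e-05). From GCB to BMPC 4 fell and 4 rose in Dnmt3-sufficient cells, Isg20 and Ddx58 rising (2.92 and 2.76, limma adjusted p 2.94e-06 and 4.20e-04), and 8 fell and 4 rose in Dnmt3-deficient cells. Among all 11522 genes 20.9% and 26.1% fell there, and 768 and 708 genes rose. The list's medians of -0.46 and -0.95 stood against -0.56 and -0.73. Of all genes, 832 and 727 rose from nB to GCB, and 1122 and 789 from nB to BMPC.

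Of the 22 genes of the Toll-like receptor to NF-kB pathway, on which Trim30a is known to act, 0 passed limma between genotypes in GCB (median -0.02). From nB to GCB, where 6.93% and 6.61% of all genes fell, 3 of 22 fell in Dnmt3-sufficient cells, Rel, Nfkb2 and the inhibitor gene Nfkbia (-2.01, -1.98 and -1.60, limma adjusted p 6.50e-03, 0.0450 and 8.36e-04), and 4 in Dnmt3-deficient cells, Tlr7, Nfkb2, Nfkbia and Tlr9. From nB to BMPC 14 and 11 of 22 fell, beside 27.6% and 30.6% of all genes, with medians of -2.37 and -2.23 against -0.70 and -0.84. Tab2, which encodes an adaptor that Trim30a is known to bring to degradation, went from 22.7 to 1.32 FPKM in Dnmt3-sufficient cells (-3.65, limma adjusted p 1.42e-04). This is a level of mRNA, while the known action is on the protein, and a link to Trim30a was not tested.

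The genes most alike Trim12a over the 18 libraries, outside the family, were Klhl41, Klri2, BC049352, Lppr3 and Abhd15, with Pearson r of 0.79, 0.76, 0.74, 0.73 and 0.72 on log2(FPKM + 1), none of them placed on chromosome 7. Trim12c stood at 0.49. Trim30a had closer company in Arhgap26, Ankzf1, Phospho2, Zfp335 and Hes6 (0.97, 0.96, 0.95, 0.95 and 0.95), and its highest member was Trim21 at 0.78. The libraries share cell types and depths, and these values rank likeness only.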

How the data were processed

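RNA-seq libraries of 18 samples were deposited by the authors as 1 table of FPKM per gene. Per the study's methods, trimmed reads were mapped to mm9 with TopHat keeping at most 1 alignment per read, reads overlapping exons were counted with GenomicAlignments in R, and edgeR (3.12.1) was used for the authors' comparisons, whose fold change and p-value columns were not used here. FPKM times exon length came out as whole multiples of 1 read (within 0.01) for 100% of values, so reads were recovered. The exon sizes deposited by the authors as another column entered only this step. Log2(FPKM + 1) was fitted with limma 3.58.1 (R 4.3.3; all 18 libraries, trend in the prior variance) for genes above 1 FPKM in at least 2 libraries, with Benjamini-Hochberg adjustment over 11522 genes; a call needed an adjusted p of at most 0.05 and a log2 change of at least 1. Single values in GCB were compared by exact permutation with SciPy 1.17.1. The fit was also run on simulated counts for the GCB genotype contrast, with 200 changed genes and the same spread setting for every gene. The spread of the real values differed between genes, so the simulation does not tell what the fit could find in them. Positions came from GENCODE M1 by symbol for 98.16% of tested genes, a synonym being used only where it was no other gene's symbol. Replicates are separate samples by their labels, and the spread between them may be partly technical. Limma p-values and standard errors rest on the spread within the 6 groups over all 18 libraries, the shallow BMPC ones included. For Trim12c between genotypes in GCB the standard error was 0.713 with BMPC in the fit and 0.225 without. Exact permutation p-values rest on the GCB libraries alone. The members and gene lists were chosen with earlier results of these data known. Named genes were all members, the 5 genes most alike Trim12a and Trim30a, neighbours within 1 Mb apart in all 3 cell types, 1 gene that is not reported here, and at most 4 genes with the largest change from each list among those that passed. Alternatives covered the pseudocount, filters, scaling, groups fitted, sex, library weights, voom on reads, paralogs summed, a replicate block and each library left out.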

Additional observations from a re-analysis of the deposited data

How the results depend on the processing

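Between genotypes in GCB, where 0 genes were called, 2 were called without the filter, 3 with a quality weight per library, 2 with voom, and 0 with median-of-ratios scaling and without the BMPC libraries. Leaving out 1 library gave 0 to 2 (2 without Dnmt3-sufficient GCB replicate 1 or 2, 1 without Dnmt3-deficient GCB replicate 2 or 3). The Trim12a difference in GCB kept its sign in all 29 alternatives and passed in 1, the quality weight (2.41, limma adjusted p 6.13e-03); adjusted p values over the alternatives reached from there to 1.00, and the difference from 1.33 to 4.77 (1.96 to 2.68 with 1 library left out). The share of Trim12a differed by 29.6 to 41.6 percentage points with 1 library left out (exact p 0.2, the smallest then possible) and by 12.4 points among the reads of all array members. The Trim12a difference in nB was 4.55 with a pseudocount of 0.1, 4.65 with voom and 1.26 with Trim12c reads added, against 3.71, and 3.58 to 3.83 with 1 library left out. The Trim30a difference in BMPC was -5.86 and -6.41 with the same settings and -2.31 with Trim30b and Trim30d reads added, against -3.22, and -3.57 to -2.91 with 1 library left out. A sum over copies holds the less changed copies by construction, and for the other settings the cause was not tested.

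From nB to GCB, 1631 genes were called in Dnmt3-sufficient and 1489 in Dnmt3-deficient cells. These became 2901 and 2844 with only the groups compared, 3259 and 3163 with a quality weight, and 3050 and 2712 without BMPC (the last chosen after the data were seen); the cause was not tested. Leaving out 1 library gave 1131 to 1885 and 982 to 1701, the 982 without Dnmt3-deficient GCB replicate 1. Median-of-ratios scaling moved the median of all genes from -0.84 to -0.69 (nB to BMPC) and from -0.73 to -0.57 (GCB to BMPC) in Dnmt3-deficient cells.

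Among the members other than Trim12a in GCB, 1169 alternative values kept their direction and side of the threshold, 35 lost a call, 30 gained one and 16 changed sign. The sign changes all concerned values that did not pass. Trim12a from GCB to BMPC changed sign in Dnmt3-sufficient cells with median-of-ratios scaling (0.0024), sex (0.0011) and a quality weight (0.0887), ranging from -0.463 to 0.395 with 1 library left out, and in Dnmt3-deficient cells with median-of-ratios scaling (0.0214), ranging from -0.512 to 0.206. Trim30b from GCB to BMPC changed sign with a pseudocount of 0.1 in Dnmt3-deficient cells (-0.0137) and with voom in Dnmt3-sufficient cells (0.0549), ranging from -0.488 to 0.663 and from -0.0972 to 0 with 1 library left out. With 1 library left out, Trim12c from GCB to BMPC in Dnmt3-sufficient cells ranged from -1.48 to 0.138, Trim68 from nB to GCB in Dnmt3-sufficient cells from -0.138 to 0.333, and Trim30a between genotypes in GCB from -0.0372 to 0.352. GCB labels share 3 numbers between genotypes, but same-numbered libraries did not deviate together (correlations 0, -0.017 and 0.026), and the fit with a replicate block also called 0 genes. Depth limits BMPC most, where 60.8% of tested genes had a library without a read.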
